A study of Mus musculus with 4 samples.

Results

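The genes described here are 8 neighbours of Gsk3a on mouse chromosome 7: Igsf23, Lgals4, Trappc6a, Hnrnpl, Mrps12, Dedd2, Ccdc61 and Cd3eap. They lie among the 100 measured genes on either side of Gsk3a and were selected on their difference between knock-in and wild-type hearts in these same arrays. Together they hold 12 of the 45037 probe sets tested and 8 of 18193 genes. The study measured transcript levels in the hearts of C57B6 mice aged 3.6 months at baseline. One group is wild-type, and the other carries GSK-3alpha S21A, a knock-in that puts alanine in place of serine 21 of this kinase. Each group has 2 arrays, and nothing in the labels says that these hold separate animals or how the knock-in line was bred. Values are RMA signals on the log2 scale, and each difference is knock-in minus wild-type, with the standard error (SE) of a limma fit over all probe sets.

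A knock-in is made by homologous recombination at the target gene, so the altered allele and the chromosome around it are inherited together. The genes beside a targeted locus are for that reason often looked at as a group. GSK-3α is a serine/threonine kinase active in resting cells, and phosphorylation of its N-terminal serine by Akt and related kinases restrains it. The 8 neighbours share no pathway. Hnrnpl, Mrps12 and Cd3eap encode proteins of splicing, mitochondrial translation and ribosomal RNA transcription. Trappc6a encodes a protein of vesicle traffic, Ccdc61 a centriole protein and Dedd2 a protein with a death effector domain. Lgals4 encodes a galectin, and Igsf23 encodes a membrane protein of the immunoglobulin superfamily.

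Promoter sequence is shown for 1 gene that was lower in the knock-in, Mrps12, and 1 that was higher, Cd3eap. These are the members whose stretch just before the start site lies in no gene record of the gene table. Each line gives the 120 bases before the start site in RefSeq's GRCm38.p6, 5′ to 3′ on the gene's own strand, which is the minus strand for both. The Mrps12 stretch is chr7:28741822-28741941 and the Cd3eap stretch is chr7:19359484-19359603. Capitals mark matches to the motifs searched.
Mrps12: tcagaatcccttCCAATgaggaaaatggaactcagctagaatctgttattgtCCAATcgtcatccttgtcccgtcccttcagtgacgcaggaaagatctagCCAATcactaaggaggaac
Cd3eap: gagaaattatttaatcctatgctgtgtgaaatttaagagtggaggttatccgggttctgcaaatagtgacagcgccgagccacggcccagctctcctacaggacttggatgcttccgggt

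The Mrps12 stretch holds 3 CCAAT boxes (CCAAT), and the Cd3eap stretch holds none of the letters searched. Over the 250 bases before each start, a CCAAT box on either strand was found in 5 of the 9 promoter records of the 8 genes, against 33.9% of all 32851 records. Those 5 belong to Ccdc61, Trappc6a, Mrps12, Hnrnpl and Lgals4. A GC box (GGGCGG) was found in 5 of 9, those of Ccdc61, Trappc6a, Dedd2, Mrps12 and Hnrnpl, against 32.7%. An E box (CACGTG) was found for Ccdc61 and Cd3eap, against 6.02% of all records. A TATA box (TATAAA, 12.4% of records) and a cyclic AMP response element (TGACGTCA, 1.55%) were found in none of the 9. The motifs differ in letters and were counted separately. Promoters of genes higher and lower in the knock-in both held CCAAT and GC boxes. Igsf23 has 2 records, and neither holds any of the 5 motifs. In the same 250 bases CpG was counted 19 times for Dedd2, 14 for Hnrnpl, 13 for Cd3eap and Trappc6a, 12 for Mrps12 and 10 for Ccdc61. The count was 2 for Lgals4 and 1 and 4 for Igsf23, against a median of 6 over all records.

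The rule that chose the genes gives no cut-off, so the values that ordered them are given as a description. Of the 201 measured genes in the window, Gsk3a included, the members take places 3 to 10 when the genes are ordered by limma's unadjusted p. Blvrb and Bcam, in places 1 and 2, are not members. The last member, Cd3eap, had an unadjusted p of 0.00855, and just outside lay Cyp2f2 at 0.00882, Gsk3a itself at 0.0101 and Apoc1 at 0.0111. None of the 12 member probe sets passed limma's test at an adjusted p of 0.05, which called 0.00666% of all probe sets, and 10 had an unadjusted p under 0.05. At that unadjusted limit 5.45% of all genes were higher in the knock-in and 4.76% lower. Because the same contrast chose the members, nothing is read from these counts. By an exact permutation test, 2 arrays against 2 cannot give a two-sided p below 0.333.

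By their brightest probe sets, 5 of the genes were higher in the knock-in hearts and 3 were lower. The largest differences were those of Lgals4, 2.40-fold lower, and Hnrnpl, 2.01-fold higher. The smallest was that of Cd3eap, 1.33-fold higher. In none of the 8 did the 2 groups overlap. Over all genes, groups without overlap were seen for 22.5% in the higher direction and 24.1% in the lower one. Since the members were chosen on this contrast, nothing is read from their lack of overlap. In whole-heart RNA, fewer cells of a type and less RNA per cell cannot be told apart.

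Hnrnpl encodes an RNA-binding protein that regulates alternative splicing, chiefly at CA-rich sites. Its brightest probe set, 1424101_at, read 7.72 and 7.25 in wild-type hearts and 8.31 and 8.67 in knock-in hearts. Both knock-in arrays lay above both wild-type arrays, with the 2 arrays of each group further apart than for most of the other members. The difference was 1.01 with an SE of 0.19.

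Trappc6a encodes a subunit of the TRAPP complexes, which tether transport vesicles on their way to and through the Golgi. Its brightest probe set, 1417034_at, read 9.08 and 9.02 in wild-type hearts and 9.80 and 10.05 in knock-in hearts. The wild-type arrays were close together, and knock-in replicate 2 was the higher of the knock-in pair. The difference was 0.87 with an SE of 0.12, or 1.83-fold.

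Igsf23 lies in a stretch of chromosome 7 rich in immunoglobulin superfamily genes, among them genes of the CEACAM family of cell adhesion proteins. Its brightest probe set, 1438074_at, read 7.78 and 7.96 in wild-type hearts and 8.70 and 8.69 in knock-in hearts. The knock-in arrays were nearly equal and the groups were separated by 0.73 at their nearest values. The difference was 0.83 with an SE of 0.11, or 1.78-fold.

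Dedd2, whose protein carries the domain through which death receptor signalling proteins bind each other, is the member nearest to Gsk3a. Its probe set, 1452070_at, read 7.35 and 7.37 in wild-type hearts and 7.75 and 7.85 in knock-in hearts. These were the most alike replicates of the 8 genes, with a pooled SD of 0.05. The difference was 0.44 with an SE of 0.11, or 1.36-fold.

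Cd3eap encodes a subunit of RNA polymerase I, the enzyme that transcribes ribosomal RNA genes. Its probe set, 1430138_at, read 7.21 and 7.32 in wild-type hearts and 7.71 and 7.63 in knock-in hearts. The knock-in pair lay above the wild-type pair by 0.31 at their nearest values, the narrowest such gap of the 8 genes. The difference was 0.41 with an SE of 0.11. The gene record of Cd3eap overlaps that of the DNA repair gene Ercc1, whose own probe set read 10.31 and 10.12 in wild-type hearts against 10.11 and 10.16. The groups overlapped for Ercc1, and its difference was −0.08 with an SE of 0.12.

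Lgals4 encodes galectin-4, a lectin known best from the epithelium of the gut. Its probe set, 1451336_at, read 9.73 and 9.22 in wild-type hearts and 8.28 and 8.14 in knock-in hearts. Wild-type replicate 1 was the highest of the 4 arrays, and the groups stood 0.94 apart at their nearest values, the widest such gap of the 8 genes. The difference was −1.26 with an SE of 0.18. Some inbred mouse strains carry a closely similar neighbouring gene, Lgals6, which was not analysed here, so the value printed for Lgals4 is uncertain where that copy is present.

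Mrps12 encodes a protein of the small subunit of the mitochondrial ribosome, related to the bacterial protein that takes part in decoding. Its probe set, 1448799_s_at, read 10.77 and 10.64 in wild-type hearts and 10.15 and 10.17 in knock-in hearts. The knock-in arrays were nearly equal and both lay below the wild-type pair. The difference was −0.55 with an SE of 0.11, or 1.46-fold lower. Its single probe set carries the array maker's suffix for probes that can match several transcripts.

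Ccdc61 encodes a coiled-coil protein of centrioles and ciliary basal bodies. Its probe set, 1435182_at, read 7.77 and 7.56 in wild-type hearts and 7.20 and 7.17 in knock-in hearts. Wild-type replicate 1 was again the highest array, as for Lgals4 and Mrps12. The difference was −0.48 with an SE of 0.12, or 1.40-fold lower.

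**Figure D1:**
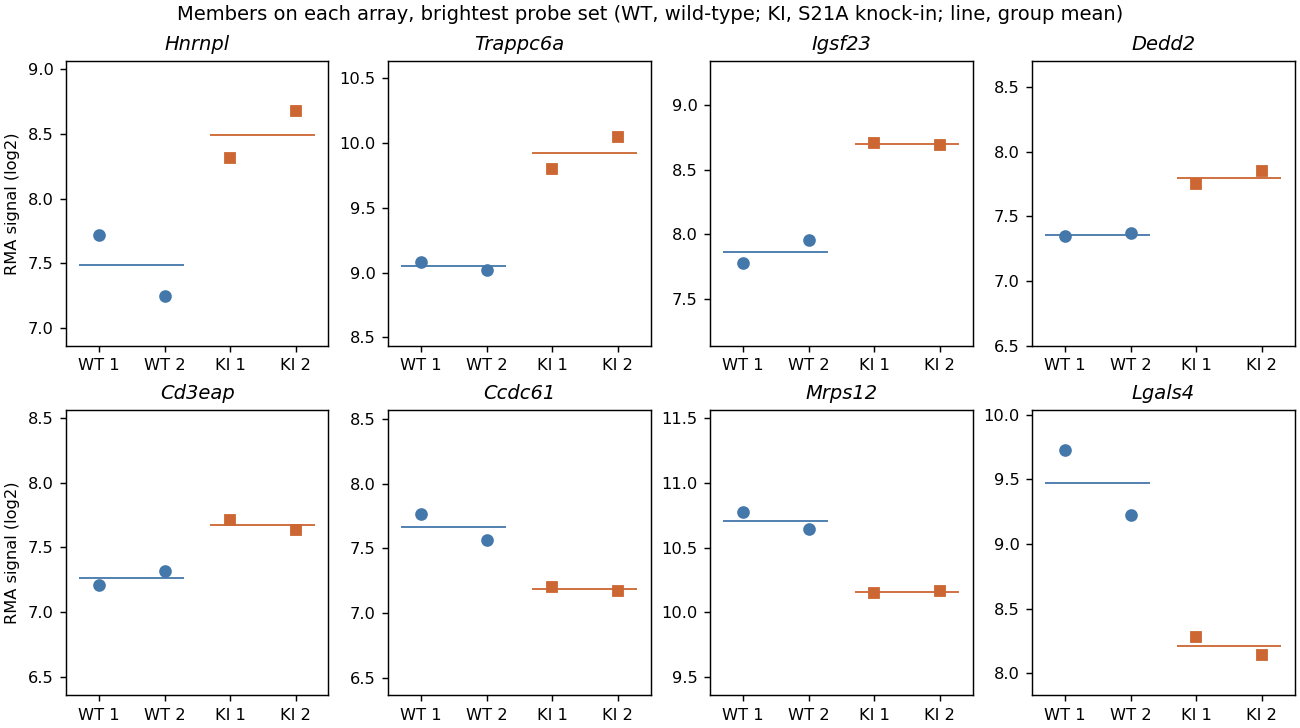
RMA signal (log2) of the brightest probe set of each of the 8 genes on the 4 arrays, with wild-type arrays as circles, knock-in arrays as squares and the group mean as a line; every panel spans the same number of log2 units. In all 8 panels the groups do not overlap, with 5 genes higher and 3 lower in the knock-in, from 1.01 for Hnrnpl to −1.26 for Lgals4.

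For 6 of the 8 genes, all but Trappc6a and Dedd2, the wild-type arrays were further apart than the knock-in arrays. Knock-in replicate 2 lay farther from the wild-type mean than replicate 1 for 5 genes. The pooled SD within groups ran from 0.05 for Dedd2 to 0.29 for Hnrnpl, and each difference was between 3.71 and 7.26 times its SE.

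More than 1 probe set measures 3 of the genes, and these were set against each other. The 3 Igsf23 probe sets were all higher in the knock-in. Probe set 1430890_at read 5.70 and 5.78 in wild-type hearts and 6.71 and 6.73 in knock-in hearts, a difference of 0.98 with an SE of 0.11. Probe set 1444182_at read 5.43 and 5.05 against 6.89 and 6.66, a difference of 1.53 with an SE of 0.16. Both lay below the array medians (6.14 to 6.23) in wild-type hearts and above them in knock-in hearts, and each differed by more than the brightest one. Folds from wild-type values below the array median are not printed.

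The probe sets of Trappc6a and Hnrnpl differed from each other. Trappc6a probe set 1460054_at read 5.64 and 5.44 in wild-type hearts and 5.39 and 5.15 in knock-in hearts. That is a difference of −0.27 (95% interval −0.60 to 0.05), opposite in sign to the brightest probe set. It was −0.16 without knock-in replicate 2 or after cyclic loess, and −0.17 without wild-type replicate 1. Hnrnpl probe set 1445594_at read between 4.87 and 5.02 on the 4 arrays, with overlapping groups and a difference of −0.06 (95% interval −0.33 to 0.20). Both lay below the array medians on all 4 arrays, whereas the brightest probe sets of all 8 genes lay above them on all 4. Averaged over its probe sets, the difference was 1.11 for Igsf23, 0.30 for Trappc6a and 0.47 for Hnrnpl. Of the 12 probe sets, 11 had groups without overlap, 7 higher and 4 lower, where 18.5% of all probe sets were higher without overlap and 26.7% lower. The members were chosen on this contrast, and nothing is read from that count.

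**Figure D2:**
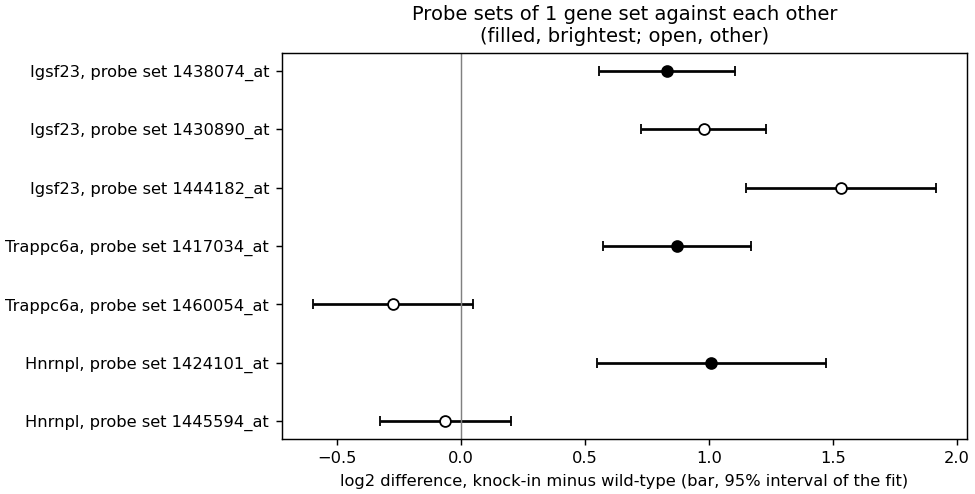
Log2 difference, knock-in minus wild-type, of each probe set of the 3 genes that have several, with bars for the 95% interval of the fit. The brightest probe set is filled. The 3 Igsf23 probe sets lie between 0.83 and 1.53, while the dim probe sets of Trappc6a and Hnrnpl lie at −0.27 and −0.06 against 0.87 and 1.01 for their bright ones.

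In gene order, 5 of the genes lie on one side of Gsk3a and 3 on the other. Counted in measured genes from Gsk3a, Ccdc61 lies at −96, Cd3eap at −75, Trappc6a at −66, Igsf23 at −47 and Dedd2 at −2. On the other side, Mrps12 lies at 76, Hnrnpl at 81 and Lgals4 at 83. By brightest probe sets, Hnrnpl and Lgals4 had the largest differences in each direction among the 8, although averaged over probe sets Igsf23 exceeded Hnrnpl (1.11 against 0.47). A single measured gene separates Hnrnpl from Lgals4, Ech1, which encodes an enzyme of fatty acid oxidation. It read 14.24 and 14.20 in wild-type hearts and 13.99 and 13.94 in knock-in hearts, a difference of −0.26 with an SE of 0.10.

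The measured genes next to each member all differed by less, in absolute size, than the member did. Because the members were chosen for their difference, that is no finding. Beside Lgals4, on the far side from Ech1, lies the galectin gene Lgals7, with wild-type values of 7.39 and 7.06, knock-in values of 6.87 and 6.81 and a difference of −0.38 with an SE of 0.14. Beside Mrps12, the mitochondrial seryl-tRNA synthetase gene Sars2 differed by 0.12 and Fbxo17 by 0.16, both with the opposite sign. The neighbours of Trappc6a, Bloc1s3 and Nkpd1, differed by 0.17 and −0.23, and those of Igsf23, Pvr and Ceacam20, by −0.17 and −0.15. Beside Ccdc61, Pglyrp1 and Nova2 differed by −0.10 and −0.09, and beside Cd3eap, Ppp1r13l by −0.09. Rinl, on the other side of Hnrnpl from Ech1, differed by 0.19. The 95% intervals of these single differences included 0 except for Ech1 (−0.51 to −0.0042) and Lgals7 (−0.71 to −0.06).

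Around Gsk3a itself, Dedd2 was the only one of the 10 nearest measured genes with a difference as large as that of Gsk3a. Gsk3a read 11.16 and 11.08 in wild-type hearts and 10.62 and 10.80 in knock-in hearts, a difference of −0.42 with an SE of 0.12. Zfp526, which lies between Dedd2 and Gsk3a and whose gene record overlaps that of Dedd2, differed by 0.11 with an SE of 0.11. On the same side Zfp574 differed by 0.19, Pou2f2 by −0.14 and D930028M14Rik by −0.12. On the other side Erf differed by −0.03, Cic by −0.18, Pafah1b3 by 0.16, Cnfn by −0.22 and the lipase gene Lipe by −0.34.

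Over the whole window the differences were mostly small and slightly more often negative. The median difference of the 201 genes was −0.08 (quartiles −0.20 and 0.07), against −0.01 over all 18193 genes and −0.05 over the 1212 other measured genes of chromosome 7. In the window 129 genes (64.2%) were lower, against 53.0% of all genes and 60.3% of the rest of the chromosome. With arrays shifted to a common median the medians were −0.021 in the window, 0.046 over all genes and 0.013 over the rest of the chromosome, and the shares lower were 53.7%, 40.1% and 47.4%. Without wild-type replicate 1 the medians were −0.028, 0.010 and −0.0045, and the shares 55.7%, 47.3% and 51.2%. The window's median was −0.039 without probe sets of mean under 6 and −0.037 without those under 7. Over all probe sets with 1 symbol the median was 0.038 and 0.063 under these filters, against −0.019 unfiltered. Within 25 genes of Gsk3a 38 of 51 genes were lower, with a median of −0.10. Within 50 genes the median was −0.063 with 66.3% lower, and within 200 genes −0.079 with 65.8% lower. Leaving the 8 members out did not move the median, which was again −0.08.

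Groups without overlap were found for 40 window genes (19.9%) in the higher direction, below the 22.5% of all genes, and for 66 (32.8%) in the lower, above the 24.1% of all genes. At an unadjusted p under 0.05, 13 window genes were higher and 21 lower, 16.9% in all, against 10.2% of all genes and 10.3% of the rest of chromosome 7. The members are 8 of those 34, and 13.5% of the other 193 genes lay under that limit. No window gene passed limma's test after adjustment over all probe sets. Just inside the unadjusted limit lay Lipe, Cd79a and Smg9, at −0.34, −0.35 and −0.29, and just outside lay Cyp2b19 at −0.29, Zfp61 at 0.52 and Zfp296 at −0.38. The window genes with the highest differences were the apolipoprotein gene Apoc1 at 2.02, Cyp2f2 at 1.62, Bcam at 1.40 and Blvrb at 1.27, none of them a member.

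**Figure D3:**
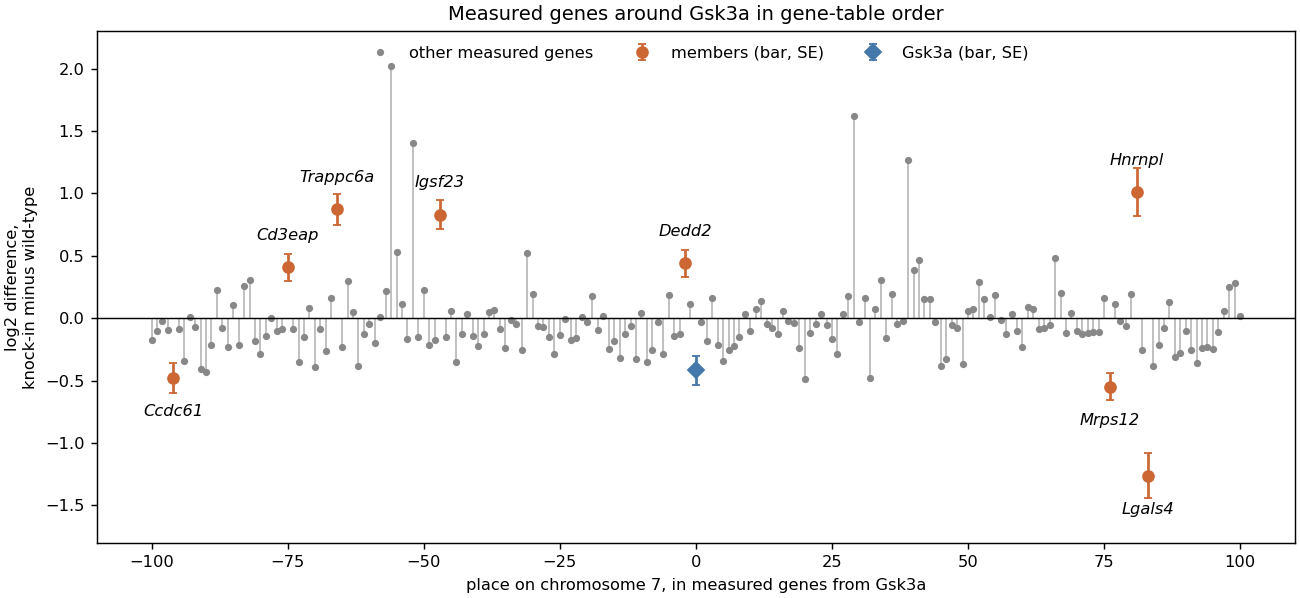
Log2 difference, knock-in minus wild-type, of the 201 measured genes around Gsk3a, placed by their order on chromosome 7 counted from Gsk3a, with the 8 genes in orange and Gsk3a as a blue diamond (bars, SE). Most grey points lie near 0 with a median of −0.08 for the window, and Hnrnpl at 1.01 and Lgals4 at −1.26 stand close together at the right.

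Genes related to the members by function were compared next. Because the members were chosen for their difference, that they stand apart from such genes is no finding, and the counts are given without a test. No gene of the 8 lists passed limma's adjusted test over all probe sets. Over all probe sets with 1 symbol the median difference was −0.019. It was 0.038 among those of mean 6 or more and 0.063 among those of 7 or more. Besides the members, all list genes lay above the array medians on every array, except for centriole (15 of 18) and CEACAM-type genes (2 of 11). How far brightness sets a list's direction was not tested. Beside Trappc6a, 13 other subunit genes of the TRAPP complexes lay between −0.08 (Trappc5) and 0.19 (Trappc13), with 9 higher, a median of 0.04 and 0 at an unadjusted p under 0.05. Cyclic loess left 4 of them higher and repeated quantile normalisation 2, with medians of −0.04 and −0.03. Trappc6b, the close relative of Trappc6a, read 11.73 and 11.65 in wild-type hearts and 11.63 and 11.60 in knock-in hearts, a difference of −0.07 with an SE of 0.11.

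Of 28 other genes of the small mitochondrial ribosomal subunit 24 were higher, the opposite of Mrps12. They ranged from −0.08 (Mrps11) to 0.28 (Mrps10), and their median was 0.10. At an unadjusted p under 0.05, 1 of them was higher and 0 lower. Cyclic loess left 18 higher and repeated quantile normalisation 19. Among 23 other hnRNP and related splicing factor genes 18 were higher. They ranged from −0.09 (Hnrnpa0) to 0.46 (Hnrnph2), and their median was 0.12. Of these, 0 had an unadjusted p under 0.05, and 15 were higher after either normalisation.

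Among the 15 other genes of RNA polymerase I and its factors, 11 were higher, with a median of 0.10, from −0.17 for the polymerase subunit gene Polr1e to 0.35 for the TATA-binding protein gene Tbp. An unadjusted p under 0.05 was reached by 1, in the higher direction, and 9 were higher after either normalisation. Of 5 other death effector domain genes 4 were higher (3 after quantile normalisation, 5 with arrays shifted to a common median). Dedd, the closest relative of Dedd2, differed by 0.25 and the adaptor gene Fadd by −0.03. Of 18 other centriole genes 11 were higher and 7 lower, from −0.39 for Cep135 to 0.54 for Cetn3, which encodes a centrin. At the unadjusted limit 2 of these were higher and 1 lower.

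Galectins and CEACAM genes were mostly lower. Of 7 other galectin genes 5 were lower, with a median of −0.12 and a range from −0.38 (Lgals7, the neighbour of Lgals4) to 0.06 (Lgals1), and 1 had an unadjusted p under 0.05, in the lower direction. All 11 other measured CEACAM-type genes were lower, with a median of −0.15, from −0.39 for Ceacam9 to −0.01 for Ceacam14. Of these 1 had an unadjusted p under 0.05, and 8 of 11 were lower with any of the 3 other normalisations. Igsf23, next to Ceacam20, was the only gene of that list with a higher value in the knock-in before renormalisation. Most CEACAM-type genes lay below the array medians, and only 2 of the 11 lay above them on every array.

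**Figure D4:**
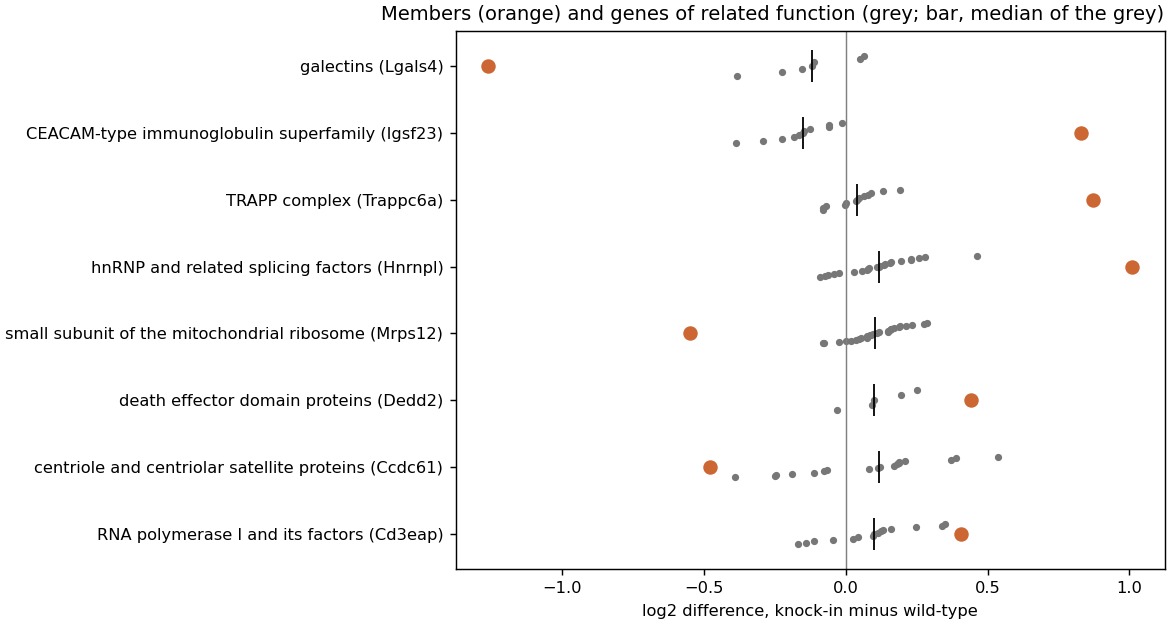
Log2 difference, knock-in minus wild-type, of each of the 8 genes (orange) beside genes of related function (grey points, their median as a black bar). The grey medians lie between −0.15 for CEACAM-type genes and 0.12 for hnRNP and centriole genes, and the orange points between −1.26 and 1.01.

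Marker genes of other tissues were followed beside these results. All 11 cardiomyocyte markers lay above the array medians on every array, with a median difference of 0.05. All 14 measured hepatocyte markers were higher in the knock-in, 13 of them at an unadjusted p under 0.05 and 0 after adjustment. Their summed linear signal was 1166 and 780 on the wild-type arrays and 7301 and 2789 on knock-in replicates 1 and 2. Of the members, replicate 1 was the knock-in array farther from the wild-type mean for Igsf23, Mrps12 and Cd3eap, and replicate 2 for the other 5. That order rests on nearly equal values for Igsf23 (8.70 and 8.69), Mrps12 (10.15 and 10.17) and Ccdc61 (7.20 and 7.17). The window genes Apoc1 and Cyp2f2, both known from liver, had the order of the hepatocyte markers. Apoc1 read 8.91 and 6.96 in knock-in replicates 1 and 2, and Cyp2f2 read 8.17 and 6.70. Other apolipoprotein and Cyp2 genes of the window did not all follow them. Apoe, which differed by 0.53, had the reverse order, at 10.85 and 11.00. Apoc4, Apoc2 and Cyp2a12 were higher in replicate 1 than in replicate 2, but their groups overlapped. Cyp2b10 was lower in the knock-in, at −0.49, as were Cyp2b13 at −0.12 and Cyp2b9 at −0.05. The part of the liver markers in the differences of the members and of these genes was not tested.

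Markers of gut epithelium, the usual site of Lgals4, were slightly lower. Of 12 such genes 9 (75%) were lower, against 53.0% of all genes, with a median of −0.18 against −0.01. By limma 1 of them had an unadjusted p under 0.05, in the lower direction, and 0 passed after adjustment. The summed linear signal of the 12 was 899 and 848 on the wild-type arrays and 781 and 739 on the knock-in arrays. No marker was at 0, since RMA gives every probe set a value. Only 3 of the 12 lay above the array medians on every array, and the others lay below them on all 4. Those 3 were Tff3, Lgals2 and Epcam, which differed by −0.30, −0.23 and −0.19. Among the dim ones, Vil1, Fabp2 and Cdx1 differed by 0.14, 0.06 and 0.04. The rest of these were lower, with Gpa33 and Lypd8 each at −0.29, Muc2 at −0.21, Cdx2 at −0.18, and Cdh17 and Krt20 each at −0.16. Over all probe sets with 1 symbol the median difference was −0.019, and 0.038 without those of mean under 6. How far dimness sets the direction of the gut list was not tested. Lymphocyte markers were lower for 7 of 8 genes, with a median of −0.21. By limma 1 of them had an unadjusted p under 0.05, in the lower direction, and 0 passed after adjustment. Skeletal muscle markers were lower for 7 of 10 genes, with a median of −0.09, and 4 of the 10 lay above the array medians on every array. Only Acta1, higher by 0.49, had an unadjusted p under 0.05 among them. Of 4 measured erythroid markers 2 were higher and 2 lower. Fibroblast markers were higher for 8 of 8, with a median of 0.17, and endothelial markers for 7 of 8, with a median of 0.19. Limma's adjusted test called 0 of either list, and its unadjusted p was under 0.05 for 1 of the former and 2 of the latter. All genes of both lists lay above the array medians on every array, against 4 of 8 lymphocyte markers. The part of these cells in the members' differences, that of Lgals4 included, was not tested.

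Across all 18193 genes, those whose profile over the 4 arrays was nearest to each member were found by the root mean square (RMS) difference of values centred on each gene's own mean. With 4 arrays such likeness is easily reached and is given as a description. Nearest to Lgals4 were Ano10 (RMS 0.13) and the glutathione-degrading enzyme gene Chac1 (0.18). For Igsf23 they were Amy1 (0.04) and Cds1 (0.05), for Trappc6a the myosin heavy chain gene Myh7 (0.05) and Shmt1 (0.07), and for Mrps12 the chaperone gene Hyou1 (0.03) and Sbsn (0.03). Hnrnpl was nearest to Pnmal2 (0.06), itself on chromosome 7 at −114 measured genes from Gsk3a, and to the clock output gene Dbp (0.16). Pnmal2 read 8.46 and 8.12 in wild-type hearts and 9.21 and 9.46 in knock-in hearts. The remaining members had near neighbours at 0.017 or less: Znrf2 and 1810013L24Rik for Dedd2, 1700011M02Rik and 4930478P22Rik for Ccdc61, and Snx2 and Mis12 for Cd3eap.

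The size of the members' differences moved with single arrays. Their sign with 1 array left out is fixed by the choice of genes whose groups do not overlap, so only sizes are given. The smallest absolute difference of Lgals4 was −1.01, without wild-type replicate 1, and that of Hnrnpl was 0.78, without wild-type replicate 2. For Trappc6a it was 0.75, without knock-in replicate 2, and for Igsf23 0.74, without wild-type replicate 1. The ranges with 1 array left out ran from 0.39 to 0.49 for Dedd2, 0.35 to 0.46 for Cd3eap, −0.58 to −0.38 for Ccdc61 and −0.61 to −0.48 for Mrps12.

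**Figure D5:**
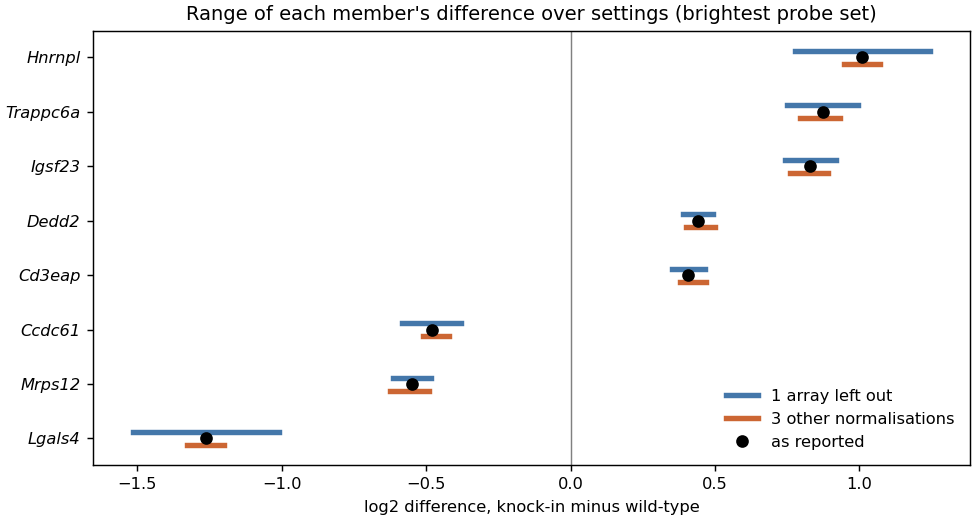
Range of each gene's log2 difference, knock-in minus wild-type, for its brightest probe set: upper bar, 1 of the 4 arrays left out in turn; lower bar, 3 other normalisations; point, the value as reported. The widest bar, for Lgals4, runs from −1.51 to −1.01; the side of 0 on which the upper bars lie is fixed by the groups' not overlapping.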

How the data were processed

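Heart RNA of 2 wild-type and 2 GSK-3alpha S21A knock-in samples was hybridised to Affymetrix arrays. The deposited values are log2 signals, and the submitters' processing notes name RMA and Affymetrix Expression Console. RMA brings the probe signals of the arrays to 1 distribution, so a shift shared by most genes can be removed. The array medians of the deposited values still differed, at 6.23 and 6.19 in wild-type hearts and 6.16 and 6.14 in knock-in hearts. Of 45101 probe sets, 64 controls were left out. The platform's annotation gave 1 symbol to 34945 probe sets, several to 932 and none to 9160; genes were named from the first only, and the probe set of highest mean represented each gene. Of 18193 genes, 18032 matched the RefSeq gene table (GRCm38.p6), used for gene order only. Differences across all probe sets came from lmFit and eBayes of limma 3.58.1 under R 4.3.3 (without covariates, Benjamini-Hochberg over 45037 probe sets, 2 residual and 4.54 prior degrees of freedom). The fit was tested on simulated data, where a limit on recovery was set only for planted changes far larger than those of the members. Tables and plots used Python 3.11.15, pandas 2.3.3, numpy 2.4.6 and matplotlib 3.10.9. Promoters came from RefSeq's table, with records for all 8 genes.

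The members, lists and tests were chosen with earlier results of these data known. Named genes are the members, Gsk3a, the measured genes beside each, those nearest the unadjusted limit of 0.05, the extremes of each list and the 2 nearest profiles. Alternatives covered normalisation, dim and cross-hybridising probe sets, the prior variance, array weights, the replicate block, each array left out, the window and the summary of probe sets. Precision is limited by the number of arrays (median SE 0.12), and p-values measure only the spread between these samples, which may be technical.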

Additional observations from a re-analysis of the deposited data

How the results depend on the processing

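Limma called 3 probe sets over the array, none of a member. The count was 11 with arrays shifted to a common median, 8 with a trended, robust prior and 1 without probe sets of mean under 7, and lay between 0 and 2 with 1 array left out, reaching 0 without knock-in replicate 1. Among member probe sets, Igsf23 1444182_at alone was called, with arrays shifted to a common median (limma adjusted p = 0.0457, against 0.153 as reported). The window's median moved to −0.021 after that shift and ran from −0.089 to −0.028 with 1 array left out, the last without wild-type replicate 1. The dim Hnrnpl probe set 1445594_at turned to 0.039 after quantile normalisation and 0.047 after cyclic loess, and ran from −0.13 to 0.0040 with 1 array left out. Averaging probe sets moved Igsf23, Trappc6a and Hnrnpl as given in the report. The cause of these changes was not tested. The filters also cut the probe sets tested, to 23755 without those of mean under 6, where 3 were called, and to 17215 without those under 7. With the replicate block 4 probe sets were called, none of a member. Deviations of same-numbered arrays correlated at 0.08, so the numbers were not taken to pair the samples. Values for single probe sets or genes were also compared across the alternatives. Of these, 140 moved by less than the spread between replicates, 9 by more and 3 turned sign. The prior, the weights, the block and the filters left a probe set's own difference as it was. With 2 arrays per group, leaving 1 out cannot move a difference by more than that spread. Most of the 140 were therefore fixed in advance, and nothing is read from that count. Signal near background limits the dim probe sets of Igsf23, Trappc6a and Hnrnpl.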
